A study of Homo sapiens with 12 samples.

Results

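Ribosome biogenesis and nucleolar genes were followed through 2 human squamous carcinoma lines with lowered or raised KLF5, a zinc-finger transcription factor of epithelial cells. The 45 members were chosen by symbol from the 57820 genes listed, with earlier results of these data known. They comprise subunits of RNA polymerase I, small nucleolar ribonucleoprotein (snoRNP) proteins, assembly factors of the small and large ribosomal subunits, the abundant nucleolar proteins NPM1, NCL and DDX21, and 3 enzymes of polyamine and pyrimidine synthesis. Poly(A) RNA was sequenced from BICR31, a head and neck squamous carcinoma line, treated with siKLF5, an siRNA that targets KLF5, or with the control siNC, in 3 libraries each. It was also sequenced from HCC95, a lung squamous carcinoma line, carrying an empty vector, wild-type KLF5 (WT) or the missense form KLF5 E419Q (2 libraries each). Each experiment used 1 line, and the sources used here give no siRNA sequence, vector or harvest time. Whether the libraries within a group stem from independent cultures is not stated, so the spread behind each p-value may be technical.

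Ribosome production begins in the nucleolus, where RNA polymerase I transcribes the long precursor of the ribosomal RNAs. Box C/D and box H/ACA snoRNPs modify that precursor, and a large set of assembly factors cleaves and folds it while the small and large subunits are built. The genes are expressed at high levels in growing cells, and MYC, which binds the E-box sequence CACGTG with its partner MAX, is a known activator of many of them.

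KLF5 itself was measured first. In BICR31 it stood at 986, 1008 and 882 units of the deposited normalised signal with siKLF5 and at 2682, 2289 and 2620 units with siNC, so that the siKLF5 mean was 37.9% of the control (log2 fold change -1.40, SE 0.0926, limma adjusted p = 7.27e-09). In HCC95 it stood at 149.9 and 136 CPM (counts scaled to library size) with the empty vector, at 420.0 and 404 CPM with WT and at 427 and 442 CPM with E419Q (log2 fold changes 1.52 and 1.58 against the empty vector). Libraries held an estimated 1922360 to 2296190 counts in BICR31 and 3074140 to 4643790 counts in HCC95. All 8 squamous epithelial markers checked were present in every group. Their summed level per length was lower with siKLF5 (3552 to 3672 against 5492 to 5584 with siNC) and with E419Q (8891 to 9237 against 13310 to 14029 with the empty vector), and higher with WT (15408 to 16382). KRT5 and KRT17 held most of these sums, and single markers differed from them. TP63 was higher with E419Q (214 to 218 TPM against 154 to 157 TPM), as were KRT14, DSC3 and PKP1. KRT6A was lower with WT (319 to 330 TPM against 509 to 528 TPM with the empty vector). DSG3 was higher with siKLF5 (44.2 to 48.5 against 25.6 to 26.1), and DSC3 overlapped between siKLF5 and siNC (31.6 to 35.3 against 30.3 to 34.8). Of the immune markers, CD3E was at 0 in every library and PTPRC at no more than 0.639, whereas CD68, a lysosomal protein abundant in macrophages, stood at 28.7 to 37.7 with siKLF5 against 15.7 to 18.3 with siNC, and at 57.2 to 62.3 TPM with the empty vector against 39.9 to 40.6 TPM with WT and 43.8 to 44.8 TPM with E419Q. Fibroblast markers summed to 61.0 to 72.5 with siKLF5 and 27.6 to 29.2 with siNC, sums made almost wholly of COL1A1 and COL1A2, while COL3A1, DCN and LUM stood at no more than 0.91 in either group. The part of these shifts in the results below was not tested.

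Members with the E-box in their promoters are shown first, since CACGTG was found in many of them. Those printed below were picked for that motif and then by their calls, so their sequences cannot show how the motif relates to a change. GNL3, NOP14, NOC3L, UTP18, PWP2 and PES1 also held it, were not called lower in all 3 comparisons with a control, and are not printed. In RefSeq promoter windows of 300 bases (250 before to 50 after a transcription start, GRCh38.p14), 38 members had an entry and 20 of them (52.6%) held CACGTG, which reads the same on both strands, against 10.9% of 15843 protein-coding genes and 8.77% of all 27305 genes in that table. In 19 of the 38 (50%) the motif began within 50 bases of a start, against 4.40% of the protein-coding genes. The comparison genes were not matched to the members by expression level. Below are 30-base stretches, 5′ to 3′ on the strand of the gene, with the E-box in capitals, for the members called lower in all 3 comparisons with a control whose stretch lies inside the window, for FBL and ODC1, and for NOP10 and GAR1, which were called in none. Where a window held more than 1 match, 1 is shown. The motif shown begins within 50 bases of a start in all but SRM (position -199 from the start) and EBNA1BP2 (-237).
SRM: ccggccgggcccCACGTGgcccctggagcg
ODC1: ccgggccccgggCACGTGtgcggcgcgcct
EBNA1BP2: gatattgttggcCACGTGggatcgaagacc
BYSL: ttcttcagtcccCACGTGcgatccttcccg
MRTO4: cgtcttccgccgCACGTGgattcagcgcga
WDR43: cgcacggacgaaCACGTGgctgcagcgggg
DDX21: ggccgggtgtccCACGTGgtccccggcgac
UTP20: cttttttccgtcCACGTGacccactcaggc
RRP9: gggttcagctgcCACGTGagttctgcggcc
NAT10: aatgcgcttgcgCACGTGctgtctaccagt
FBL: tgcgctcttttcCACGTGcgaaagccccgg
NOP10: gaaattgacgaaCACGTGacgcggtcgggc
GAR1: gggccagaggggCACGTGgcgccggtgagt
These lie at chr1:11060200-11060229 (minus strand) for SRM, chr2:10448024-10448053 (minus) for ODC1, chr1:43172790-43172819 (minus) for EBNA1BP2 and chr6:41921515-41921544 (plus) for BYSL. MRTO4's is at chr1:19251807-19251836 (plus) and WDR43's at chr2:28894658-28894687 (plus). The others are at chr10:68956604-68956633 (plus) for DDX21, chr12:101280083-101280112 (plus) for UTP20, chr3:51941892-51941921 (minus) for RRP9 and chr11:34105602-34105631 (plus) for NAT10. FBL's is at chr19:39846356-39846385 (minus), NOP10's at chr15:34343130-34343159 (minus) and GAR1's at chr4:109815781-109815810 (plus). A match describes the sequence and does not show binding. The GC-rich motif CCCGCCC, searched on both strands, was held by 24 of the 38 members (63.2%) and by 50.3% of the protein-coding genes, and the CACCC motif CACACCC, also on both strands, by 1 member (2.63%) and 10.3%.

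In the control libraries 44 members in BICR31 and 43 in HCC95 stood above the median tested gene per unit of transcript length. The scale in HCC95 is the deposited TPM, and in BICR31 the signal divided by the gene's mean effective length in the HCC95 files and scaled to the same total as TPM. The 2 scales thus share their gene lengths, while the signals come from separately deposited values. The members' median level was 62.0 with siNC, against 14.8 for all genes tested, and 84.3 TPM with the empty vector, against 18.8 TPM. NPM1, a histone chaperone and shuttle of ribosomal particles, was the highest member in both lines (level per length 2758 ± 73.7 with siNC, SD, n = 3; 5142 ± 26.2 TPM with the empty vector, n = 2). NCL (nucleolin) followed in BICR31 at 412 ± 12.9, ahead of NOP56 at 331 ± 15.9, while NHP2 (238 ± 18.8) and EBNA1BP2 (236 ± 18.4) did not differ beyond their spread. The lowest levels in BICR31 were those of UTP20 (11.4) and POLR1A (15.5), and these were also the lowest in HCC95 (15.7 and 14.96 TPM). The log2 levels in the control libraries of the 2 lines had Pearson's r of 0.882 and Spearman's rho of 0.901 over the 45 members, which share library preparation within a line. The part of the shared gene lengths in these values was not tested.

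**Figure D1:**
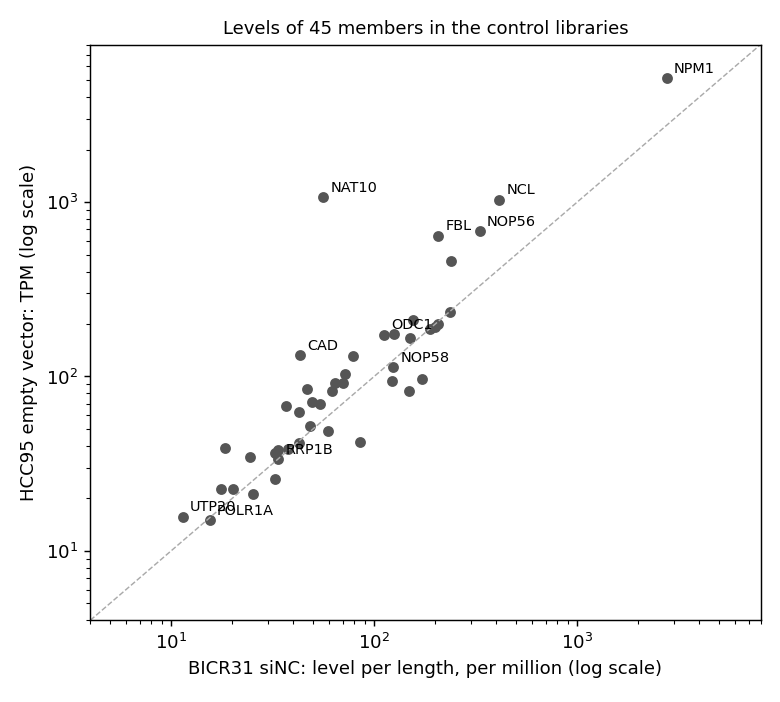
Level per length of each of the 45 members in the control libraries, BICR31 siNC (mean of 3 libraries) on the horizontal and HCC95 empty vector (TPM, mean of 2 libraries) on the vertical axis, both logarithmic, with the line of equality dashed. NPM1 is the highest in both lines, and NAT10 stands well above the line, at 1065 TPM against 56.2.

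NAT10, the acetyltransferase of ribosomal RNA, was the member whose place differed most between the lines. It ranked 2 of 45 in HCC95 with the empty vector (1065 ± 9.38 TPM), not beyond the spread of NCL at 1032 ± 92.4 TPM, and 25 of 45 in BICR31 with siNC (56.2 ± 2.66), a ratio of 18.9. The next highest ratio was 3.11, for FBL, the median over members was 1.29, and CAD, the enzyme that starts pyrimidine synthesis, stood at 3.07. The line, the laboratory handling and the deposited scale cannot be told apart in these ratios.

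Most members stood lower in BICR31 once KLF5 was silenced. Together they made up 0.676%, 0.685% and 0.687% of all counts with siNC and 0.482%, 0.479% and 0.480% with siKLF5. NPM1 and NCL held about the same part of that sum in both groups (28.0% to 28.5% and 27.8% to 28.6%), and without them the share was still 0.486% to 0.493% with siNC and 0.343% to 0.346% with siKLF5. Of the 45 members, all tested, 31 fell and none rose with limma at an adjusted p under 0.05, against a background of 10.8% of 15710 genes called lower and 15.3% called higher. At an unadjusted p under 0.05 the numbers were 36 lower and 1 higher, against 15.4% and 21.0% of all genes. Among the genes at or above the lowest member's mean signal, 17.4% were called lower. In 33 members every siKLF5 library lay under every siNC library, against 17.5% of all genes. The members' median log2 fold change was -0.50, against 0.04 for all genes tested. In bulk RNA, a change in the cells' makeup and a change in RNA per cell cannot be told apart. The shares are relative to each library's total, and the signal tested with limma to a scaling that is not stated.

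**Figure D2:**
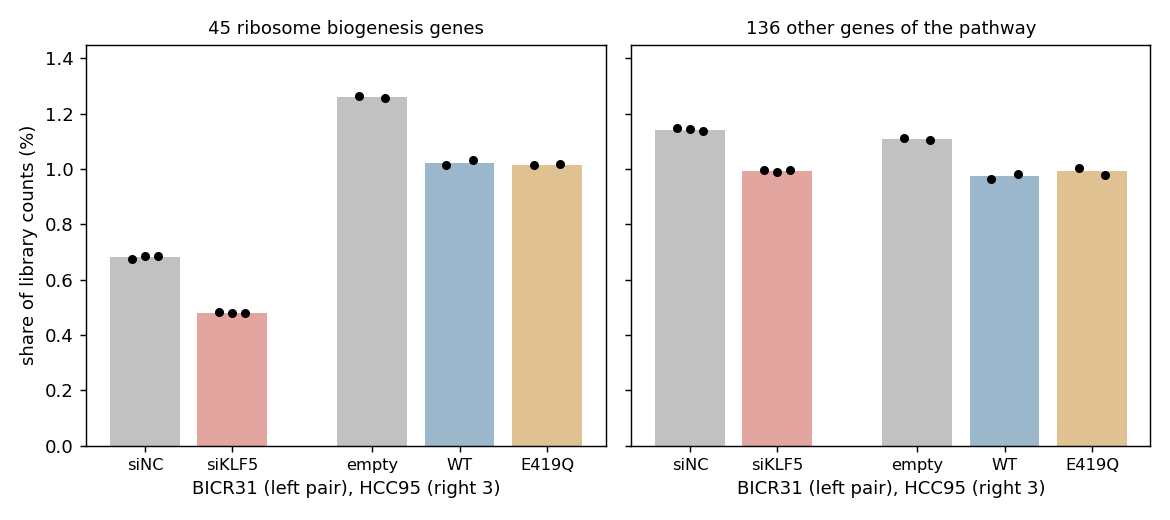
Share of all counts of a library (percent) taken by the 45 members (left) and by the 136 other genes of the pathway (right), with bars for group means and points for single libraries. The siKLF5 libraries lie under the siNC libraries, and the WT and E419Q libraries under the empty-vector libraries, in both panels.

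FBL (ENSG00000105202.3), the methyltransferase of box C/D snoRNPs that methylates ribosomal RNA, showed the deepest fall. It stood at 633, 708 and 787 units with siKLF5 and at 1800.0, 2207 and 1861 units with siNC. The siKLF5 libraries were far below every control library, with a mean of 36.3% of the control (log2 fold change -1.46, SE 0.111, limma adjusted p = 4.12e-08). The other box C/D proteins fell too. NOP56, a core protein of the same particle, stood at 2136, 2333 and 2079 units against 3809, 3556 and 3532 units (log2 fold change -0.74), and NOP58, its partner, had a log2 fold change of -0.40. RRP9, a protein of the U3 snoRNP needed for the first cleavages of the precursor, fell as well (419.1, 383 and 283 units against 536, 684 and 587 units, log2 fold change -0.75, limma adjusted p = 0.0034). All 4 members of this role were thus called lower.

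The box C/D proteins were also set against each other within a library. Per length, FBL stood at 0.343 to 0.439 of NOP56 with siKLF5 and at 0.548 to 0.719 with siNC, and at 0.700 to 0.876 of NOP58 against 1.53 to 1.74. The groups did not overlap in either ratio. With 3 libraries against 3, 0.10 is the smallest two-sided p that an exact permutation test of a single ratio allows. In HCC95 the FBL to NOP56 ratio was 0.883 and 0.999 with the empty vector, 1.21 and 1.27 with WT and 1.04 and 1.09 with E419Q. Both forms thus lay above the control, but the gap between the nearest E419Q and control libraries was smaller than that between the control libraries. With 2 libraries against 2, the smallest p of such an exact test is larger still. The FBL to NOP58 ratio was 5.74 and 5.63 with the empty vector, 7.03 and 7.28 with WT and 5.29 and 5.90 with E419Q, so that WT lay above the control and E419Q on both sides of it.

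Subunits of RNA polymerase I, the enzyme that makes the precursor, were uneven. POLR1E, the homologue of a yeast initiation subunit, was at 362, 308 and 323 units with siKLF5 and at 664, 638 and 623 units with siNC (log2 fold change -0.96, SE 0.145, limma adjusted p = 9.37e-05). POLR1B, the second largest subunit, was at 575, 458 and 394 units against 882, 848 and 939 units (log2 fold change -0.92, SE 0.144, limma adjusted p = 0.000131). Neither gene's groups overlapped. POLR1A, the largest subunit, was at 1791, 1742 and 1740.2 units against 2027, 1878 and 1779.5 units and was not called (log2 fold change -0.11, limma adjusted p = 0.372).

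In the box H/ACA particle, which converts uridine to pseudouridine, the catalytic subunit was called and its partners were not. DKC1, the pseudouridine synthase, fell to 2416, 2392 and 2512 units from 3800.0, 4349.6 and 3993 units (log2 fold change -0.73, SE 0.0682, limma adjusted p = 4.99e-07), and NOLC1, a chaperone of snoRNPs, fell from 6414 to 6456 units to 3842 to 4528 units (log2 fold change -0.64). The small partners NHP2 (log2 fold change -0.13, 95% interval -0.35 to 0.09), NOP10 (-0.25, -0.52 to 0.02) and GAR1 (-0.13, -0.57 to 0.30) were not called. Per length, NHP2 stood at 1.92 to 2.66 of DKC1 with siKLF5 and at 1.47 to 1.57 with siNC, and NOP10 at 1.57 to 1.91 against 1.16 to 1.36.

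Assembly factors of the small subunit fell in 7 of 12 cases (median log2 fold change -0.41). Among them were NAT10 (1413, 1400.0 and 1519.7 units against 1954, 2069.9 and 2141 units, log2 fold change -0.51, limma adjusted p = 0.000164), WDR43, a member of the early processome (-0.50), and BYSL, a late 40S maturation factor (-0.45). RRP12, which works in export of pre-ribosomes, was at 1438, 1517 and 1465 units against 1472, 1486 and 1536 units (log2 fold change -0.02, 95% interval -0.20 to 0.15).

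Of the 14 large-subunit factors, 10 fell (median -0.54). RRP1B, a nucleolar phosphatase-targeting protein, led with 1109, 1175 and 1063 units against 1918, 1815 and 2096 units (log2 fold change -0.80, SE 0.0900, limma adjusted p = 4.16e-06). BOP1 and PES1, which form the PeBoW complex with WDR12, fell with log2 fold changes of -0.73 and -0.49, and WDR12 itself fell with -0.56. NOP2, a methyltransferase of the large-subunit RNA, fell to 2259.6, 2217 and 2535 units from 3473, 3538 and 3785 units (-0.62). GRWD1, a histone-binding protein of the same pathway, was the member with a value above 0 (1289.5, 1407 and 1598 units against 1227, 1240.1 and 1156 units, log2 fold change 0.24, limma adjusted p = 0.0849). Its siKLF5 libraries all lay above its siNC libraries, and without siKLF5 A it was called higher (log2 fold change 0.31, limma adjusted p = 0.0492).

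NPM1, the most abundant member, stood at 15077, 14747 and 15320.0 units with siKLF5 and at 21749, 22885 and 22883 units with siNC (log2 fold change -0.58, SE 0.0376, limma adjusted p = 5.40e-09). NCL (-0.26) and DDX21 (-0.36), a helicase that couples polymerase I transcription to processing, fell as well. Among the enzymes, CAD fell from 2109, 2353 and 2204 units to 1438, 1233 and 1252 units (log2 fold change -0.77, SE 0.0879, limma adjusted p = 5.01e-06). SRM, spermidine synthase, fell to 1610.5, 1575 and 1638 units from 2254, 2562 and 2556 units (-0.61), whereas ODC1, the first enzyme of polyamine synthesis, overlapped between groups (2533 to 2753 units against 2584 to 3009 units, log2 fold change -0.12, limma adjusted p = 0.273).

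Overexpression of WT in HCC95 was also followed by lower levels of most members. Their share of all counts was 1.263% and 1.256% with the empty vector and 1.014% and 1.033% with WT. NPM1 and NCL made up 32.3% to 32.6% and 33.0% to 33.3% of that share, and the share without them was 0.846% to 0.855% and 0.677% to 0.692%. With edgeR, 30 of 45 members fell and none rose, against 12.1% of 12933 genes called lower and 10.8% called higher, and DESeq2 called 17 lower and 0 higher, against 5.72% and 4.36% of the genes to which it gave an adjusted p. At an unadjusted p under 0.05, edgeR gave 35 lower and 0 higher, against 17.8% and 17.0% of all genes. The background was 17.6% lower among the genes at or above the lowest member's mean. In 40 members both WT libraries lay under both empty-vector libraries, against 29.1% of all genes. The median log2 fold change of the members was -0.32, against 0.00 for all genes tested.

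The E419Q form was compared with the same 2 empty-vector libraries, so the 2 comparisons are not independent of each other. The members' share was 1.015% and 1.017%, or 0.675% to 0.679% without NPM1 and NCL. With edgeR, 29 of 45 members fell and none rose. At an unadjusted p under 0.05 the numbers were 35 and 0, against 16.6% and 16.4% of all genes, and with DESeq2 17 fell and 0 rose, against 3.78% and 3.35%. The background was 10.8% called lower and 10.4% called higher, with 15.7% lower among the genes at or above the lowest member's mean. Both E419Q libraries lay under both empty-vector libraries in 38 members, against 26.4% of all genes. The members' median was -0.33.

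**Figure D3:**
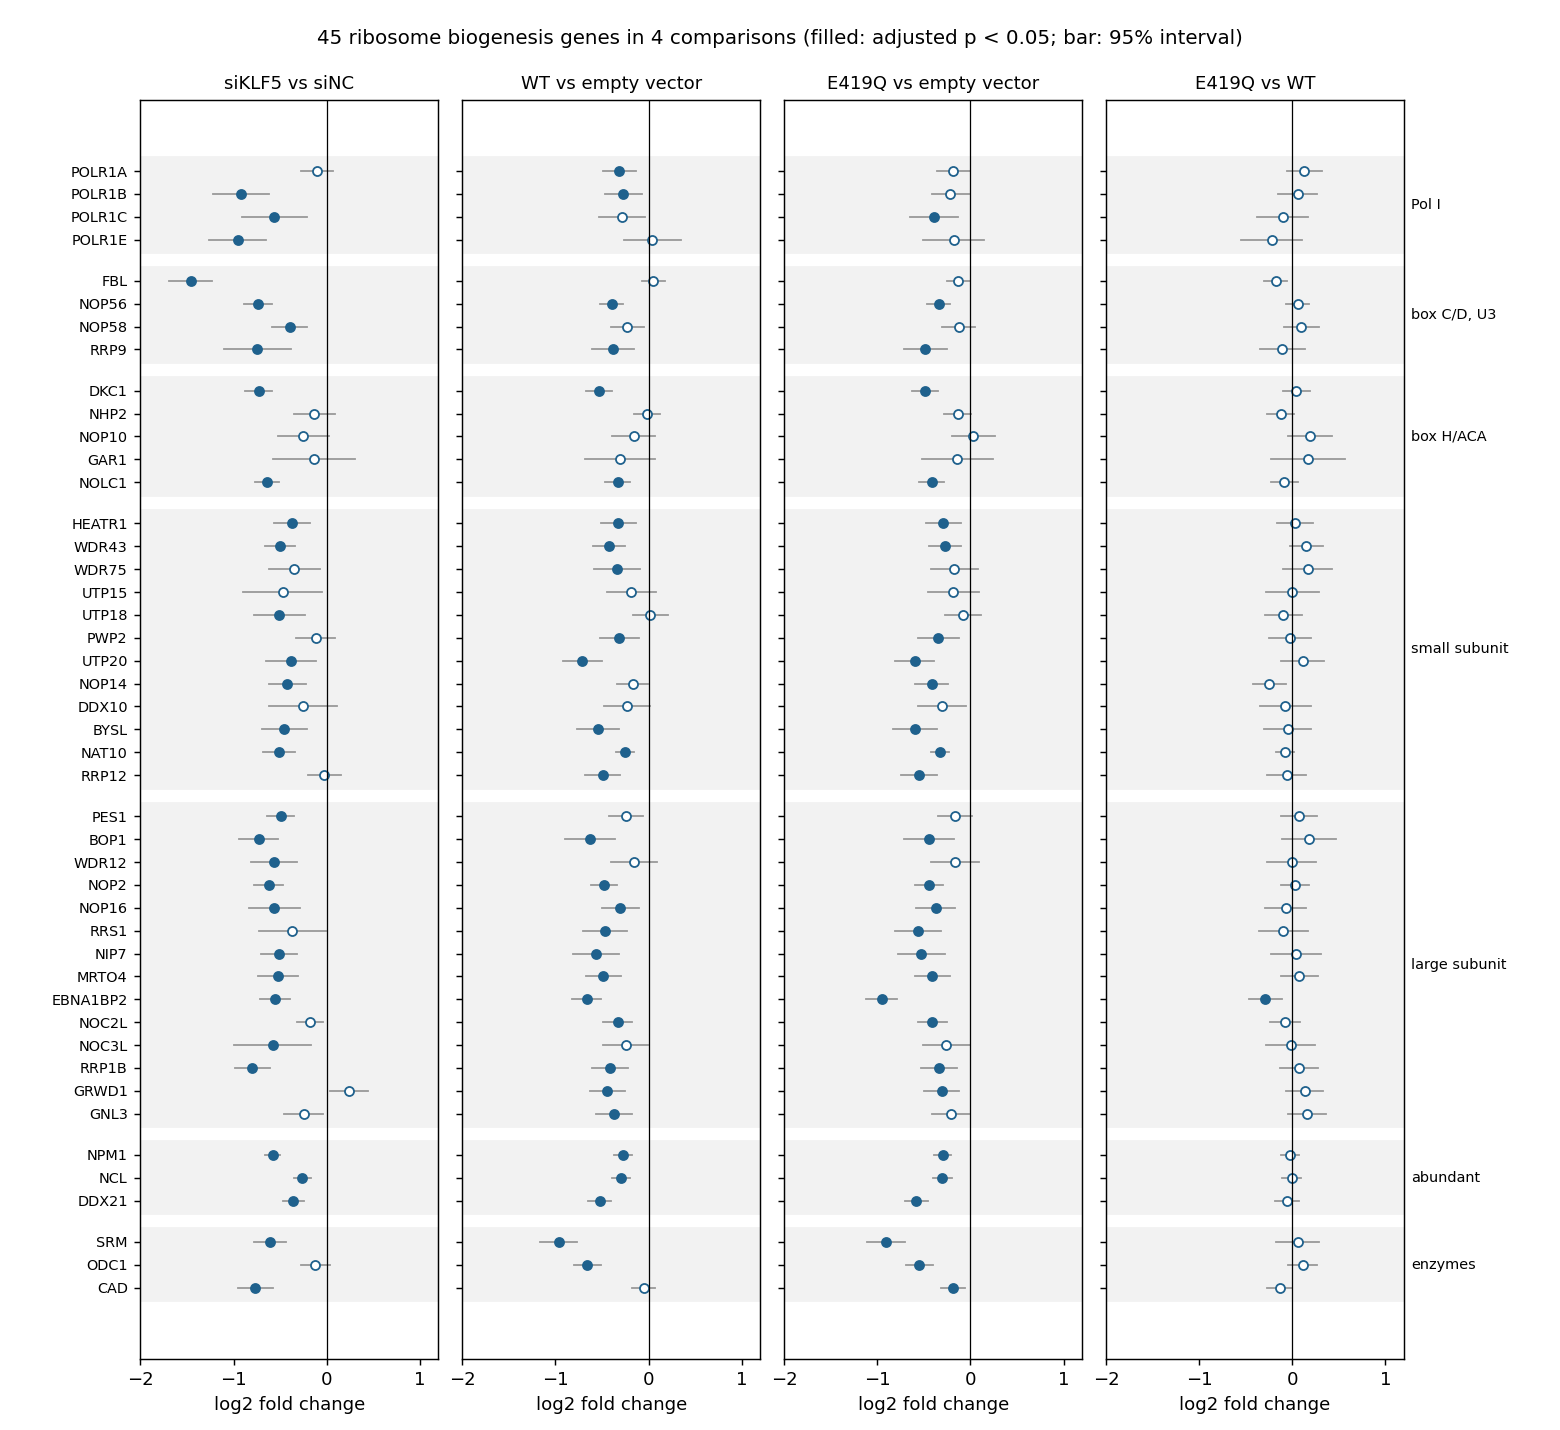
Log2 fold change of each of the 45 members in the 4 comparisons, grouped by role, with the 95% interval as a bar and filled points for an adjusted p under 0.05 (limma in BICR31, edgeR in HCC95). Filled points in the first 3 panels all lie below 0 (31, 30 and 29 members), and 1 point, EBNA1BP2, is filled in the comparison of E419Q with WT.

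In HCC95 the deepest falls were in genes other than FBL. SRM stood at 139 and 145 CPM with the empty vector, at 64.8 and 81.4 CPM with WT and at 81.3 and 73.7 CPM with E419Q. Its level with either form was near 51.5% and 54.6% of the control (log2 fold change -0.96, SE 0.0970, edgeR adjusted p = 1.87e-07 with WT, and -0.91, SE 0.0989, edgeR adjusted p = 4.68e-07 with E419Q). ODC1, the enzyme just upstream of SRM, stood at 258 and 259 CPM with the empty vector, 160.4 and 169.8 CPM with WT and 173 and 188 CPM with E419Q (log2 fold changes -0.66 and -0.55). The third enzyme, CAD, was at 361 and 370.4 CPM, at 368 and 343 CPM with WT and at 333 and 322 CPM with E419Q. Its log2 fold change was -0.05 with WT (edgeR adjusted p = 0.587) and -0.19 with E419Q (edgeR adjusted p = 0.0340), a call that left-out libraries and DESeq2 did not keep.

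EBNA1BP2, a large-subunit factor first found as a partner of a viral protein, stood at 173 and 183 CPM with the empty vector, at 116 and 111 CPM with WT and at 92.4 and 95.7 CPM with E419Q. The 3 groups did not overlap (log2 fold change -0.66, SE 0.0762, edgeR adjusted p = 1.13e-06 with WT, and -0.95, SE 0.0804, edgeR adjusted p = 9.47e-09 with E419Q). BOP1 was uneven within WT, at 68.6 and 110.5 CPM against 127 and 148 CPM with the empty vector and 104 and 103 CPM with E419Q (log2 fold change with WT -0.62, edgeR adjusted p = 0.00118). That value was -0.34 without WT A and -1.02 without WT B. NIP7, a processing factor of pre-ribosomes, fell to 39.0 and 41.1 CPM with WT from 64.8 and 54.1 CPM (log2 fold change -0.57, edgeR adjusted p = 0.00126; DESeq2 adjusted p = 0.0609). In all, 11 of 14 large-subunit factors were called lower with WT and 10 with E419Q.

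Among the small-subunit factors, 8 of 12 were called lower with either form. UTP20, a very large scaffold protein of the processome, was at 96.1 and 95.8 CPM with the empty vector, 60.0 and 58.4 CPM with WT and 57.6 and 71.3 CPM with E419Q (log2 fold changes -0.71 and -0.60). BYSL was at 73.8 and 65.7 CPM, at 48.3 and 47.6 CPM with WT and at 51.1 and 43.1 CPM with E419Q (log2 fold changes -0.54 and -0.59; DESeq2 adjusted p = 0.0510 with WT). RRP12, not called in BICR31, was at 101 CPM in both empty-vector libraries, 68.0 and 76.1 CPM with WT and 70.9 and 69.5 CPM with E419Q (log2 fold changes -0.49 and -0.55). NAT10 fell from 2275 and 2292 CPM to 1931 and 1942 CPM with WT and 1878 and 1832 CPM with E419Q (log2 fold changes -0.25 and -0.33).

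The abundant proteins fell in HCC95 too. NPM1 was at 2441 and 2367 CPM with the empty vector, 2004 and 2010.2 CPM with WT and 1978 and 2012 CPM with E419Q (log2 fold changes -0.27 and -0.30). DDX21 was at 564 and 535 CPM, at 371 and 399 CPM with WT and at 377 and 374 CPM with E419Q (log2 fold changes -0.52 and -0.58). Of the box C/D members 2 of 4 and of the box H/ACA members 2 of 5 were called lower with either form, and of the polymerase I subunits 2 of 4 with WT and 1 of 4 with E419Q. In the modifying particles, DKC1 (-0.53 and -0.49), NOLC1 (-0.33 and -0.42) and NOP56 (-0.39 and -0.34) fell with WT and E419Q. FBL was not called: it was at 372 and 356 CPM with the empty vector, 380.2 and 379.7 CPM with WT and 342 and 339 CPM with E419Q (log2 fold changes 0.05 and -0.13, edgeR adjusted p = 0.594 and 0.138). POLR1E was not called either (0.04 and -0.18).

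**Figure D4:**
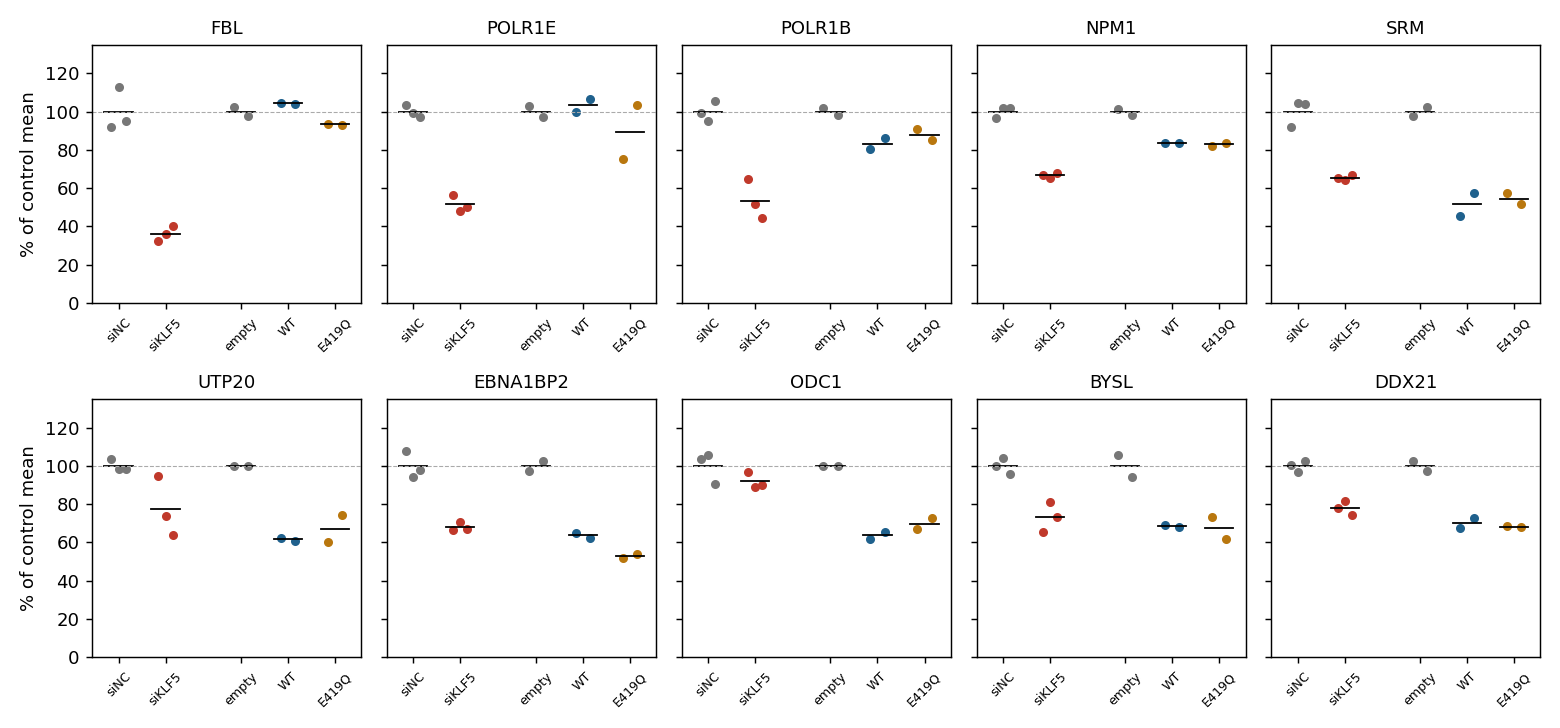
Level of 10 members in each library as a percentage of the mean of its own control (siNC in BICR31, empty vector in HCC95), with points for libraries and short lines for group means. FBL and POLR1E lie far under the control in the siKLF5 libraries (FBL at a mean of 36.3%) and near it with WT, while SRM is the lowest of the 10 with WT (51.5%).

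Members called lower in BICR31 with siKLF5 were often also called lower in HCC95, where KLF5 had been raised instead. With both siKLF5 and WT 21 members were called lower, 67.7% of the 31 and 70.0% of the 30, against 329 of 12432 genes tested in both lines (2.65%), which are 20.3% of the genes called lower with siKLF5 and 21.5% of those called lower with WT. With both siKLF5 and E419Q the number was 23, 74.2% of the 31 and 79.3% of the 29, against 329 genes (2.65%), or 20.3% and 24.2% of the genes called lower. In all 3 comparisons with a control, 20 members were called lower, against 234 of the 12432 genes (1.88%); WT and E419Q share their controls here. Among the 20 were NPM1, NCL, DDX21, NOP56, DKC1, NOLC1, NOP2, EBNA1BP2 and SRM. A further 10 were called in 2, 10 in 1, and GAR1, NHP2, NOP10, DDX10 and UTP15 in none, with all libraries used. With siNC B left out, UTP15 was called lower with siKLF5 (log2 fold change -0.64, limma adjusted p = 0.0421). NOC2L and WDR75 without siNC A, and RRS1 without siKLF5 A, were also called lower with siKLF5. Without E419Q B, DDX10's log2 fold change with E419Q was -0.48, against -0.30 with all libraries. Over the 45 members the log2 fold changes with siKLF5 and with WT had Pearson's r of -0.20 and Spearman's rho of -0.09. The members with an E-box in the promoter window were called lower in 15 of 20 cases with siKLF5, 13 of 20 with WT and 13 of 20 with E419Q, and those without one in 11, 12 and 11 of 18.

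**Figure D5:**
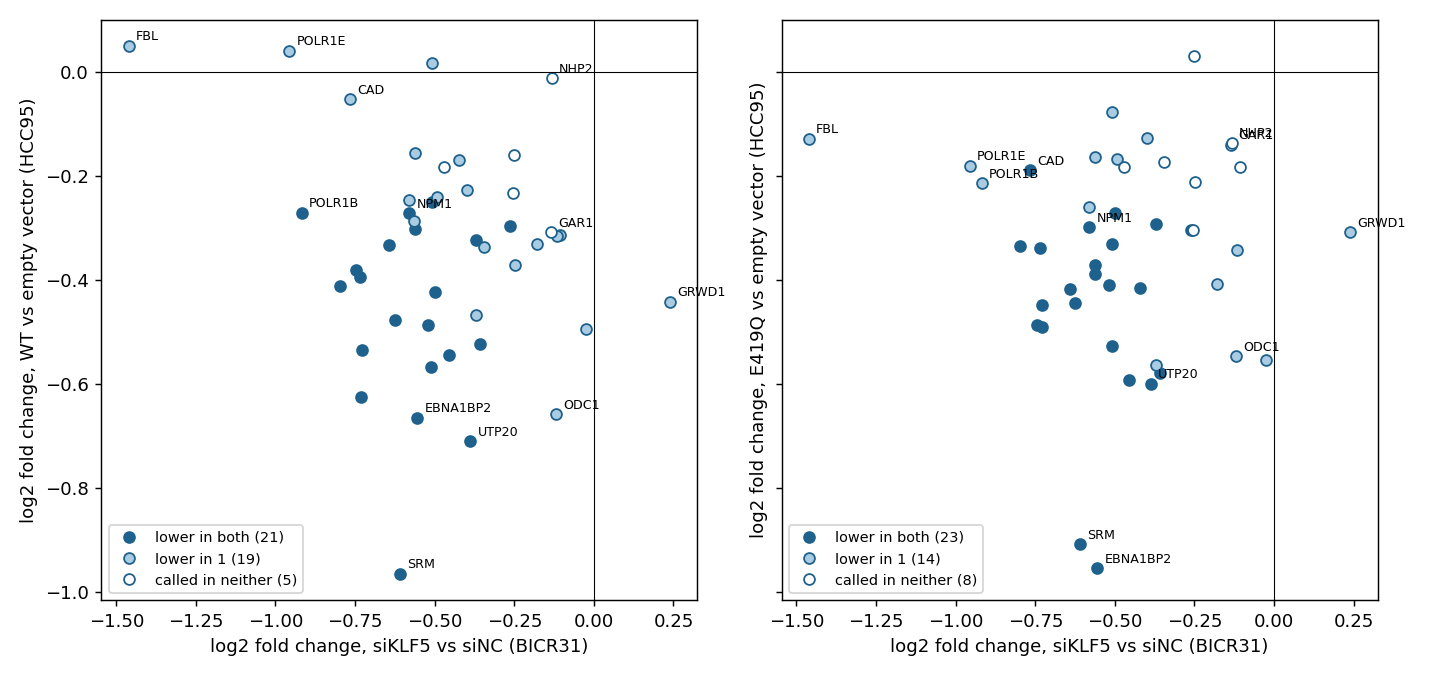
Log2 fold change of each member with siKLF5 in BICR31 (horizontal) against that with WT (left) or E419Q (right) in HCC95 (vertical), coloured by whether the member was called lower in both, in 1 or in neither. Most points lie below 0 on both axes, and 21 members (left) and 23 members (right) are called lower in both. FBL is the lowest on the horizontal axis, and SRM (left) and EBNA1BP2 (right) are the lowest on the vertical axis.

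Few members were called between E419Q and WT. With edgeR 1 of 45 was called lower and none higher, where 3.59% of all genes were called lower and 4.41% higher. At an unadjusted p under 0.05 the numbers were 4 lower and 0 higher, against 9.19% and 9.84% of all genes. The 95% interval of the log2 fold change held 0 for 41 members and lay within 0.5 of 0 for 43, which bounds the difference for those. The member called was EBNA1BP2 (92.4 and 95.7 CPM against 116 and 111 CPM, log2 fold change -0.29, SE 0.0858, edgeR adjusted p = 0.0391). That call was lost without E419Q A (edgeR adjusted p = 0.237), E419Q B (0.143), WT A (0.220) or WT B (0.111), and with DESeq2 (0.514), which called 0 members lower or higher, and 1.43% of all genes lower and 1.76% higher. The log2 fold change was -0.26 to -0.32 with a library left out and -0.29 with DESeq2. NOP14 (90.7 and 93.4 CPM against 109 and 107.02 CPM, log2 fold change -0.25, edgeR adjusted p = 0.0919) and FBL (-0.18, edgeR adjusted p = 0.0761) did not pass. BOP1, uneven within WT, was called higher with E419Q once WT B was left out (log2 fold change 0.57, edgeR adjusted p = 0.00925; 0.18 and 0.562 with all libraries).

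Several calls did not hold with fewer libraries, and the values that follow are adjusted p-values with 1 library left out (limma in BICR31, edgeR in HCC95). The log2 fold changes of the lost calls kept their sign, at a median of 92.6% of the value with all libraries in BICR31, 92.8% with WT and 93.9% with E419Q. They moved by over 1.5 times for UTP20 without siKLF5 C (-0.39 to -0.26), NOC3L without siNC C (-0.58 to -0.35), GNL3 (-0.37 to -0.24) and WDR75 (-0.34 to -0.15) with WT without empty vector A, and RRS1 with E419Q without E419Q A (-0.56 to -0.36). In BICR31, 28 of the 31 calls held whichever library was left out. UTP20 lost its call without siKLF5 B (0.104), siKLF5 C (0.179), siNC A (0.0925), siNC B (0.0720) or siNC C (0.0745). POLR1C, a subunit shared by polymerases I and III, lost it without siKLF5 B (0.0820), siKLF5 C (0.0874), siNC A (0.0643) or siNC C (0.0859), and NOC3L in 5 of the 6 cases (0.0644 to 0.208, all but siNC A). In HCC95, 20 of the 30 calls with WT and 17 of the 29 with E419Q held throughout. With WT, RRP9 lost its call without WT B (0.135) or empty vector B (0.124), RRS1, a 5S particle loader, without WT A (0.106), and RRP1B without WT A (0.0777). POLR1A lost it without WT A (0.104) or empty vector B (0.08765), HEATR1 without WT A (0.107) or empty vector A (0.1102), and GNL3 without WT B (0.0608) or empty vector A (0.106). PWP2 lost it without WT B (0.271), empty vector A (0.0830) or empty vector B (0.0715), NOP16 without any 1 of the 4 libraries compared (0.0748 to 0.124, at a log2 fold change of -0.30 to -0.31 throughout), WDR75 without any library but empty vector B (0.0504 to 0.452), and POLR1B without any of the 6 (0.0589 to 0.232). With E419Q, RRS1 (51.1 and 70.4 CPM against 88.2 and 88.5 CPM, log2 fold change -0.56) lost its call without E419Q A (0.0751), as did NIP7 (0.0560) and RRP9 (0.0537), and BOP1 without E419Q A (0.103), E419Q B (0.133) or empty vector B (0.140). CAD lost it without E419Q A (0.0853), E419Q B (0.207) or empty vector B (0.128). POLR1C lost it without any 1 of the 4 libraries compared (0.0717 to 0.159), HEATR1 without E419Q A (0.209) or empty vector A (0.182), WDR43 without E419Q B (0.247) or empty vector A (0.188), and NOP16 without E419Q B (0.188). PWP2 lost it without E419Q B (0.222), empty vector A (0.0625) or empty vector B (0.0547), RRP1B without E419Q A (0.0785), E419Q B (0.0956) or empty vector B (0.0648), and GRWD1 without E419Q A (0.06665), E419Q B (0.142) or empty vector A (0.0598). DESeq2 did not call 13 of edgeR's 30 members with WT (adjusted p 0.0510 to 0.383): BYSL, NOC2L, RRP1B, NIP7, RRS1, GNL3, HEATR1, POLR1A, RRP9, WDR75, PWP2, NOP16 and POLR1B. With E419Q it did not call 12 of 29 (0.0646 to 0.459): MRTO4, NIP7, RRP9, BOP1, CAD, WDR43, RRP1B, NOP16, HEATR1, GRWD1, PWP2 and POLR1C. DESeq2's log2 fold changes for these were as deep as edgeR's, at 101.5% to 108.5% of them with WT and 100.9% to 105.4% with E419Q.

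Other genes of the same pathways, 136 in 5 lists, were measured beside the members. They made up 1.14% to 1.15% of counts with siNC and 0.989% to 0.996% with siKLF5, and 1.11% with the empty vector against 0.965% to 0.983% with WT and 0.980% to 1.002% with E419Q. With siKLF5 45 were called lower and 4 higher (median log2 fold change -0.20), with WT 40 and 1 (-0.20) and with E419Q 32 and 2 (-0.19). The backgrounds were those above, with 10.8%, 12.1% and 10.8% of all genes called lower. DESeq2 called 13 lower and 1 higher with WT, against 5.72% and 4.36% of the genes to which it gave an adjusted p. With E419Q it called 8 and 0, against 3.78% and 3.35%. With 1 library left out the numbers called lower were 30 to 38 with siKLF5, 24 (without WT A) to 35 with WT and 17 to 30 with E419Q (21 without E419Q A and 17 without E419Q B). Further factors of polymerase I were called lower in 4, 3 and 3 of 16 cases (1 with either form by DESeq2), among them TCOF1 (treacle, -0.71 with siKLF5) and CD3EAP (-0.58 with both WT and E419Q). Small-subunit factors were called lower in 20, 17 and 15 of 46 (7 with WT and 4 with E419Q by DESeq2), with NOL6 (-0.72 with WT, -0.61 with E419Q), and TSR1 (-0.40, -0.59 and -0.50) in all 3 comparisons. Large-subunit factors were called lower in 13, 16 and 12 of 49 (3 and 1 by DESeq2), with LYAR (-0.76) and MYBBP1A (-0.59) in BICR31 and EIF6 (-0.43 and -0.39) in HCC95, and GLTSCR2 rose with WT (0.64, edgeR adjusted p = 1.70e-06). Of the 49, 1 was called higher with siKLF5, 1 with WT and 2 with E419Q. DESeq2's calls of lower levels in the large-subunit and polymerase I lists were near its shares of all genes or under them.

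The RNA exosome, which trims the precursor, was called lower in 5 of 14 cases with siKLF5, such as EXOSC2 (-0.61) and EXOSC8 (-0.70), and higher in 1. Of all genes, 10.8% were called lower and 15.3% higher there. With WT and E419Q edgeR called 0 of the 14, and DESeq2 called 0. At an unadjusted p under 0.05 edgeR gave 3 lower with each form, near the 17.8% (WT) and 16.6% (E419Q) of all genes. Among 11 further polyamine and pyrimidine genes, SAT1, the acetyltransferase that starts polyamine breakdown, rose with siKLF5 (log2 fold change 1.68, SE 0.0751, limma adjusted p = 4.86e-11). CTPS1, which makes cytidine triphosphate, fell in all 3 comparisons (-0.62, -0.92 and -0.66). Between E419Q and WT 2 of the 136 were called lower (GLTSCR2 and POLR1D, both -0.29), calls lost without any 1 of the 4 libraries compared (0.0907 to 0.132 for GLTSCR2, 0.0732 to 0.334 for POLR1D) and with DESeq2.

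Some members share sequence with other genes, and the sources used here do not state the strand setting of the counting. NPM1 has 45 listed processed pseudogenes, which held 0.158% to 0.400% of NPM1's counts in HCC95 and 1.09% to 1.53% in BICR31. Exons of 15 members overlap those of another gene. For example, POLR1C overlaps exons of XPO5 and YIPF3 on the opposite strand, HEATR1 those of LGALS8, NIP7 those of COG8 and NHP2 those of RMND5B. NOP16 likewise overlaps HIGD2A, MRTO4 EMC1 and NOP14 NOP14-AS1. Reads of these pairs could be mixed if strand was not used. GRWD1 overlaps KCNJ14 on the same strand, by 350 bases, so strand would not separate that pair.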

How the data were processed

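RNA-seq of poly(A) RNA covered 12 libraries in 5 groups, grouped by the labels. Reads were aligned with STAR and quantified with RSEM against hg19, and edgeR and limma were also named, per the submitters' processing notes (without versions). The HCC95 files hold RSEM expected counts, TPM and effective lengths, which the authors deposited per gene, per the file headers. The BICR31 files hold a signal that the authors deposited as normalised. The sources used here do not say how it was scaled. One count was worth 7.87 to 9.12 units there (81.7% to 82.7% of values above 0 were whole within 0.02), which gave the estimated totals.

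The 45 members and the lists of 136 further genes were chosen with earlier results of these data known. BICR31 was tested with limma 3.58.1 on log2(signal + 1) for genes whose mean reached 10 units. Fold changes are on that scale. HCC95 expected counts were rounded and tested with edgeR 4.0.16 (quasi-likelihood, TMM, filterByExpr, all 6 HCC95 libraries in 1 fit). Tests were two-sided, Benjamini-Hochberg adjusted over all genes, at 0.05. CPM scales counts by the library total. Every member could be named. Values in every library were given for up to 6 members a comparison with the largest called changes and no overlap, and for others needed to describe a role; of each further list, up to 3 called genes with the smallest adjusted p were named. DESeq2 1.42.0, other scalings, filters and pseudocounts, a replicate block and leaving out each library were alternatives. R 4.3.3 and Python 3.11.15 were used. No protein sequences were used.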

Additional observations from a re-analysis of the deposited data

How the results depend on the processing

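No member's direction reversed under the alternatives run for a call. With siKLF5, 28 to 34 members were called lower over the scalings, filters, pseudocounts and left-out libraries (31 as reported). DESeq2 lowered the numbers called in HCC95 from 30 to 17 with WT, from 29 to 17 with E419Q and from 1 to 0 for E419Q against WT. The cause was not tested. Upper-quartile scaling called 2 members lower in E419Q against WT. With 1 library left out, members called lower numbered 28 to 31 with siKLF5, 23 to 28 with WT, 20 to 29 with E419Q and 0 to 1 for E419Q against WT, and members called higher numbered 0 to 1 with siKLF5 and 0 to 1 for E419Q against WT. A fit with the replicate letter as a block (replicate block) called 34 members lower with siKLF5, 29 with WT, 29 with E419Q and 1 in E419Q against WT. Libraries with the same letter did not deviate together (correlations 0.026, -0.00165 and 0.000624 in BICR31, and -0.0414 to 0.0225 in HCC95). Such correlations cannot tell whether libraries with the same letter were prepared together. With 2 libraries a group, the widest 95% interval between E419Q and WT reached 0.399 log2 units to either side.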

Other observations

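MYC, a known activator of many members and not one of them, was measured beside them, a choice made after the members' values were seen. It stood at 2498, 2350.0 and 2827 units with siKLF5 and at 3673, 3511 and 3595 units with siNC (log2 fold change -0.49, SE 0.0737, limma adjusted p = 8.27e-05). In HCC95 it was at 287 and 272 CPM with the empty vector, at 278 and 265 CPM with WT (log2 fold change -0.05, edgeR adjusted p = 0.621) and at 228 and 213 CPM with E419Q (-0.37, edgeR adjusted p = 0.000337). It was lower with E419Q than with WT (-0.32, edgeR adjusted p = 0.00331), a call lost without E419Q B (0.0961) or WT A (0.0613) and with DESeq2 (0.0515). MYC's mean was 97.2% of the control with WT and 78.9% with E419Q, and its part in the members' values was not tested.

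NAT10, the member that stood apart between the lines, was compared with the 5 protein-coding genes on each side of it in RefSeq's gene order, a choice also made after its value was seen. Levels are per length, the HCC95 scale being TPM, and both scales use gene lengths from the HCC95 files. In HCC95 with the empty vector against BICR31 with siNC, CAT, catalase, stood at 523 TPM against 30.7 (a ratio of 17.0), and APIP, an enzyme of methionine salvage, at 549 TPM against 32.3 (17.0), near NAT10's ratio of 18.9. ABTB2 (5.23) and EHF (4.10) were also higher in HCC95. On the other side, CAPRIN1 (0.781), FBXO3 (0.524) and CD59 (0.303) were lower, and LMO2 was at 4.12 TPM against 1.11. The cause was not tested.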
